A study of Mus musculus with 6 samples.

Results

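The genes described here are 41 genes of the cell cycle, chosen by name: 13 of DNA replication, 23 of mitosis and 5 regulators and general markers of dividing cells. A gene was followed through the probe sets that the annotation of the array names with its symbol alone. Of the 41 genes, 40 had such a probe set and all 40 passed the filter on low values, among 12326 genes tested of 18193 named. Ccnb1 had no probe set named with it alone and is not analysed here. The 40 genes had 91 probe sets, of which 76 were tested. Adult, skeletally mature male mice of 24 to 26 g, which the methods of the study name Black CD57, gave RNA from 3 bone sites, with 2 arrays each. The labels name no treatment and no genetic change for any of the mice. The calvaria was described as without its sutures, the mandible as with its teeth, and the ulna as without soft tissue and epiphyses. The ulna arrays nevertheless held strong signal of skeletal muscle markers, with sums of 70040 to 71260. The methods name a pair of groups of mice for this pilot study, but the sources used here do not tie these groups to arrays or say how many mice stand behind 1 array. Each p-value therefore rests on the scatter of 2 arrays a site, which can be technical, and the small number of arrays limits how precise a difference can be. The labels do not name removal of marrow from any of the sites.

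A cell that divides first copies its DNA and then parts the copies. In replication, the MCM2 to MCM7 ring is loaded on origins with the help of Cdc6, is switched on with Cdc45 and the GINS complex and unwinds DNA, while ribonucleotide reductase and thymidylate synthase supply nucleotides and Pcna holds the polymerases on the template. In mitosis, cyclin B with Cdk1 starts the division, kinesins and microtubule proteins build the spindle, a checkpoint waits until all kinetochores are attached, and the anaphase-promoting complex then releases the chromatids. In adult bone, the marrow is rich in dividing blood precursors, whereas osteocytes, the most numerous cells of the bone matrix, do not divide.

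Signal of the cell cycle genes was highest in ulna, lower in calvaria and lowest in mandible. For 37 of the 40 genes both ulna arrays lay above both calvaria arrays and these above both mandible arrays, after division of each array by its median, whereas 17.1% of the 12326 genes tested had this order. The exceptions were Mcm2, Foxm1 and Melk. Differences are given on the log2 scale with the standard error (SE) of the fit, and a gene was called at an adjusted p under 0.05 together with a change of at least 2-fold. In mandible against ulna 34 of the 40 genes were called lower and 0 higher, where 10.9% of all genes were called lower and 11% higher. In calvaria against ulna 2 were called lower, Mki67 and E2f8, and 0 higher, where 4.54% of all genes were called lower and 8.36% higher. With quantile normalization neither was called in that comparison, and with the values as deposited or without the first calvaria array E2f8 was not, as both genes lie close to the 2-fold limit. In mandible against calvaria 8 were called lower and 1 higher, where 4.01% of all genes were called lower and 5.14% higher. At an adjusted p under 0.05 with no fold limit, 36 of the 40 genes were lower in calvaria than in ulna (18.4% of all genes), 38 in mandible than in ulna (28.1%) and 35 in mandible than in calvaria (16.2%). The median difference of the 40 genes was -0.69 in calvaria against ulna, -1.38 in mandible against ulna and -0.77 in mandible against calvaria, beside -0.05, -0.08 and -0.09 for all genes tested. The comparisons share arrays, so the counts are not independent of each other. In whole bone, fewer dividing cells and less RNA per cell cannot be told apart.

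**Figure D1:**
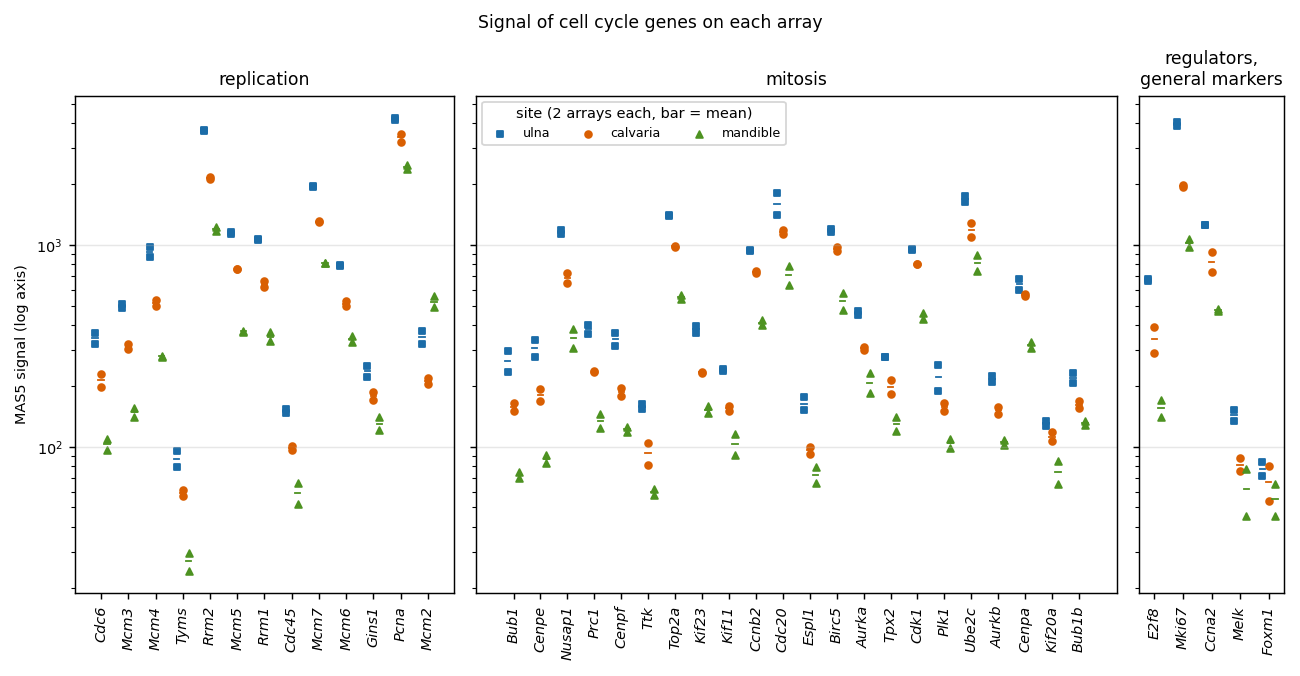
MAS5 signal of the 40 cell cycle genes on each of the 6 arrays, on a log axis, with genes along the horizontal axis in 3 panels by class and a bar at the mean of the 2 arrays of a site (ulna squares, calvaria circles, mandible triangles). In 37 genes the squares lie above the circles and the circles above the triangles after scaling, Mcm2 at the end of the first panel is high in mandible, and heights of different genes are not comparable because each has its own probes.

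Most of the replication genes were lower in mandible, with 10 of 13 called against ulna, where 10.9% of all genes were called lower. At the adjusted p alone 12 of the 13 were lower. Pcna is the sliding clamp of the DNA polymerases. Its signal was 4150.4 and 4236 in ulna, 3246 and 3555 in calvaria and 2482 and 2380.4 in mandible. The sites did not overlap, and the mandible lay 1.87-fold below the ulna (log2 -0.90, SE 0.06, adjusted p = 1.25e-06), short of the 2-fold limit. Rrm2 is the subunit of ribonucleotide reductase whose level follows the cell cycle. Its signal was 3664 and 3684 in ulna, 2112 and 2169.7 in calvaria and 1168 and 1220.5 in mandible. It was 3.34-fold lower in mandible than in ulna (log2 -1.74, SE 0.06, adjusted p = 1.31e-08), with a log2 difference of -0.86 in calvaria against ulna that passed the adjusted p alone (adjusted p = 2.54e-06). Rrm1, the other subunit of the enzyme, differed by -1.72 in mandible against ulna (SE 0.09) and by -0.81 in calvaria against ulna (SE 0.09). Both subunits were therefore called lower in mandible than in ulna, and the arrays of the 3 sites did not overlap in either.

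Within the MCM ring, Mcm3 to Mcm7 were called lower in mandible than in ulna. Mcm7 gave 1934 and 1963 in ulna, 1289.8 and 1309 in calvaria and 812 and 810.5 in mandible, with both arrays of each site close together. Its log2 difference between mandible and ulna was -1.38 (SE 0.07). Mcm3 gave 485 and 508 in ulna, 323 and 306 in calvaria and 155 and 141 in mandible. Mcm3 was 3.64-fold lower in mandible than in ulna (log2 -1.86, SE 0.11, adjusted p = 3.24e-07) and was also called lower in mandible than in calvaria (log2 -1.13, SE 0.11). Mcm4 gave 868 and 972 in ulna, 536 and 499 in calvaria and 279.7 and 279.9 in mandible, again with no overlap of sites. Its difference between mandible and ulna was -1.83 (SE 0.10), and in calvaria against ulna -0.91 (SE 0.10), the most negative of the replication genes in that comparison. Mcm5 and Mcm6 differed by -1.74 and -1.32 in mandible against ulna, and Mcm5 was also called in mandible against calvaria (log2 -1.07, SE 0.08).

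Mcm2, which belongs to the same ring, was measured by 2 probe sets that went opposite ways in the mandible. The probe set with the higher mean, with the ending s_at in its name, stands for the gene by the rule used for all genes, and gave 322 and 374 in ulna, 220.2 and 205 in calvaria and 558 and 489.9 in mandible. By this probe set Mcm2 was 2.39-fold higher in mandible than in calvaria (log2 1.26, SE 0.12, adjusted p = 2.86e-05), the 1 gene called higher in that comparison, and differed by 0.47 from ulna (SE 0.12, adjusted p = 0.00746). The other, with the ending at, gave 501 and 583 in ulna, 335 and 349 in calvaria and 205 and 176 in mandible. Its log2 difference was -1.62 in mandible against ulna (adjusted p = 1.65e-06), in the direction of the other MCM genes. Between calvaria and ulna both probe sets were negative. The letter s marks a probe set whose probes can match more than 1 transcript, and the probe sets that stand for Mcm3, Mcm7 and Prc1 have it too. With its 2 probe sets opposed, the direction of Mcm2 in the mandible is not settled by these arrays. All 15 tested probe sets of Mcm3 to Mcm7 were negative in mandible against ulna.

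**Figure D2:**
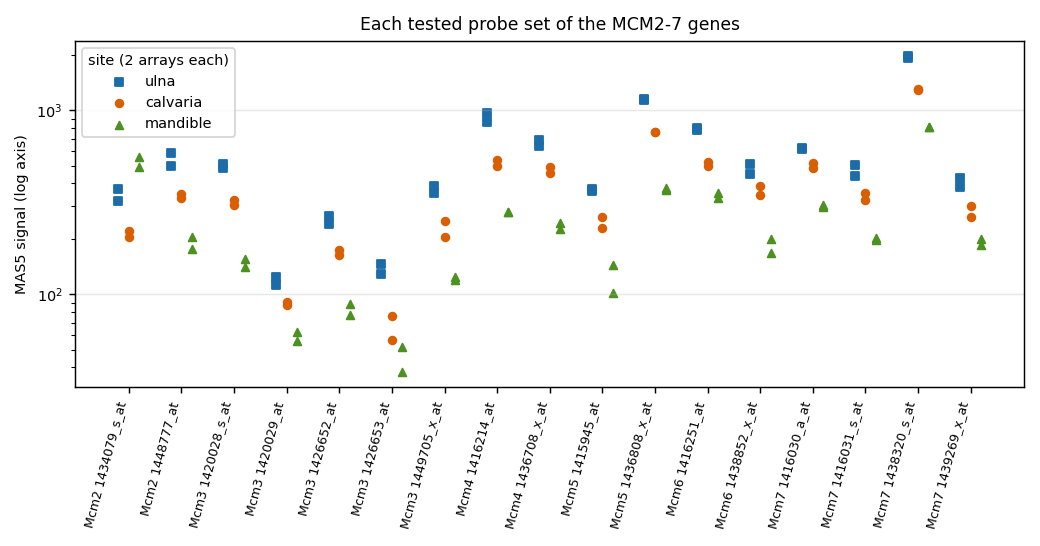
MAS5 signal, on a log axis, of each tested probe set of the 6 MCM genes on the 6 arrays (ulna squares, calvaria circles, mandible triangles, 2 arrays each). The first Mcm2 probe set is highest in mandible, and in every other probe set shown the mandible arrays are the lowest.

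Among the factors that prepare and fire origins, Cdc6, the loader of the MCM ring, gave 366 and 323 in ulna, 230.4 and 198 in calvaria and 96.1 and 109 in mandible. It was 3.64-fold lower in mandible than in ulna (log2 -1.86, SE 0.14, adjusted p = 1.95e-06) and was called lower in mandible than in calvaria too (log2 -1.10, SE 0.14). Cdc45, which joins the ring when the origin fires, differed by -1.47 in mandible against ulna (SE 0.19). Gins1, a subunit of the GINS complex, differed by -0.98 (SE 0.14, adjusted p = 0.000249) and missed the fold limit. Tyms, the thymidylate synthase, was called lower in mandible than in both other sites (log2 -1.81, SE 0.27, against ulna). Its signal in mandible, 29.8 and 24.4, lay below the medians of the mandible arrays, 33.6 and 33.2, so the size of its change is not exact, and in calvaria against ulna it did not pass the adjusted p (log2 -0.64, SE 0.27, adjusted p = 0.102).

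Of the 22 mitosis genes tested, 20 were called lower in mandible than in ulna, where 10.9% of all genes were. At the adjusted p alone 22 of 22 were lower. In mandible against calvaria 3 of the 22 were called lower, as were 4 of the 13 replication genes, beside 4.01% of all genes. Top2a untangles the copied chromosomes. Its signal was 1389 and 1409.7 in ulna, 979 and 983 in calvaria and 542 and 561 in mandible. It was 2.75-fold lower in mandible than in ulna (log2 -1.46, SE 0.07, adjusted p = 1.17e-07), and the difference of calvaria from ulna was -0.59 (SE 0.07). Ube2c is the ubiquitin-conjugating enzyme of the anaphase-promoting complex, and gave 1747 and 1627 in ulna, 1097 and 1281 in calvaria and 886 and 743 in mandible. Cdc20, an activator of that complex, gave 1802 and 1399 in ulna, 1183 and 1125 in calvaria and 631 and 782 in mandible. Both were called lower in mandible than in ulna, Ube2c by -1.17 (SE 0.10) and Cdc20 by -1.29 (SE 0.13), and the arrays of a site lay farther apart than for Top2a without overlap between sites.

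Kinetochore and checkpoint genes were among those with the largest differences of the class. Bub1, a checkpoint kinase at the kinetochore, gave 297 and 235 in ulna, 164 and 150.1 in calvaria and 74.7 and 69.9 in mandible. It was 3.96-fold lower in mandible than in ulna (log2 -1.99, SE 0.16, adjusted p = 2.9e-06) and was called lower than in calvaria as well (log2 -1.16, SE 0.16). Cenpe, the kinesin of the kinetochore, gave 279 and 336 in ulna, 169 and 192 in calvaria and 90.6 and 82.8 in mandible, a difference of -1.94 between mandible and ulna (SE 0.15) that again held against calvaria (log2 -1.10, SE 0.15). Bub1b, the checkpoint protein BubR1, was measured by 2 probe sets of nearly equal signal. The probe set that stands for the gene differed by -0.86 in mandible against ulna (SE 0.14, adjusted p = 0.000475) and missed the fold limit in all 3 comparisons. The other was called lower in mandible than in ulna (log2 -1.52, adjusted p = 1.11e-05) and than in calvaria (log2 -1.22, adjusted p = 0.000148), so whether Bub1b passes the limits depends on the probe set. Of the other centromere and checkpoint genes, Cenpf differed by -1.59, the checkpoint kinase Ttk by -1.51 and the centromeric histone Cenpa by -1.11 in mandible against ulna, all called lower. Between calvaria and ulna the Cenpa probe set with the highest signal did not pass the adjusted p (log2 -0.25, SE 0.10, adjusted p = 0.0752), while a dimmer one was called lower (log2 -1.17, adjusted p = 0.0055).

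Nusap1, which bundles spindle microtubules, gave 1186 and 1131 in ulna, 723 and 645 in calvaria and 307 and 381 in mandible. It was 3.67-fold lower in mandible than in ulna (log2 -1.88, SE 0.11, adjusted p = 3.64e-07) and was called lower than in calvaria (log2 -1.04, SE 0.11). The other spindle and cytokinesis genes called lower in mandible than in ulna were Prc1 (log2 -1.62), Kif23 (log2 -1.44), Kif11 (log2 -1.34) and Tpx2 (log2 -1.22). Kif20a, a kinesin of the late spindle, gave 135 and 127 in ulna, 107 and 118 in calvaria and 85.3 and 65.4 in mandible, and was called in none of the comparisons (log2 -0.92, SE 0.19, adjusted p = 0.00227 in mandible against ulna). The kinases and their partners were called lower in mandible than in ulna as well: Cdk1 by -1.21, its cyclin Ccnb2 by -1.30, Aurka by -1.27, Aurkb by -1.16, Plk1 by -1.20, and Birc5, the survivin that works with Aurkb, by -1.28. The separase Espl1, which cuts the link between chromatids, differed by -1.29 (SE 0.18).

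Of the regulators and general markers, Mki67, the gene of the Ki-67 antigen used to stain dividing cells, gave 4060.3 and 3872 in ulna, 1974 and 1936 in calvaria and 977 and 1068 in mandible. It was 2.14-fold lower in calvaria than in ulna (log2 -1.10, SE 0.07, adjusted p = 7.54e-07) and 4.21-fold lower in mandible than in ulna (log2 -2.07, SE 0.07, adjusted p = 7.09e-09). E2f8, a repressor of the E2F family that is itself made in S phase, gave 680.4 and 658 in ulna, 291 and 391 in calvaria and 141 and 170.5 in mandible. It was called lower in all 3 comparisons, by -1.06 in calvaria against ulna (SE 0.15), -2.23 in mandible against ulna (SE 0.15) and -1.16 in mandible against calvaria (SE 0.15). Ccna2, the cyclin of S phase and early mitosis, gave 1249.7 and 1260.1 in ulna, 729 and 920.1 in calvaria and 473 and 481 in mandible, and was called lower in mandible than in ulna (log2 -1.51, SE 0.11). Melk, a kinase of dividing cells, was also called there (log2 -1.39, SE 0.26), although the mandible arrays, 45.5 and 77.6, overlapped those of calvaria, 87.5 and 75.8. Foxm1, a transcription factor of mitosis genes, gave 71.4 and 84.4 in ulna, 53.7 and 80.0 in calvaria and 45.6 and 65.2 in mandible by its brightest probe set, which with these overlapping arrays passed the adjusted p in none of the comparisons (adjusted p = 0.436, 0.0961 and 0.489). A dimmer probe set of Foxm1 was called lower in mandible than in ulna (log2 -1.40, adjusted p = 0.0456).

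**Figure D3:**
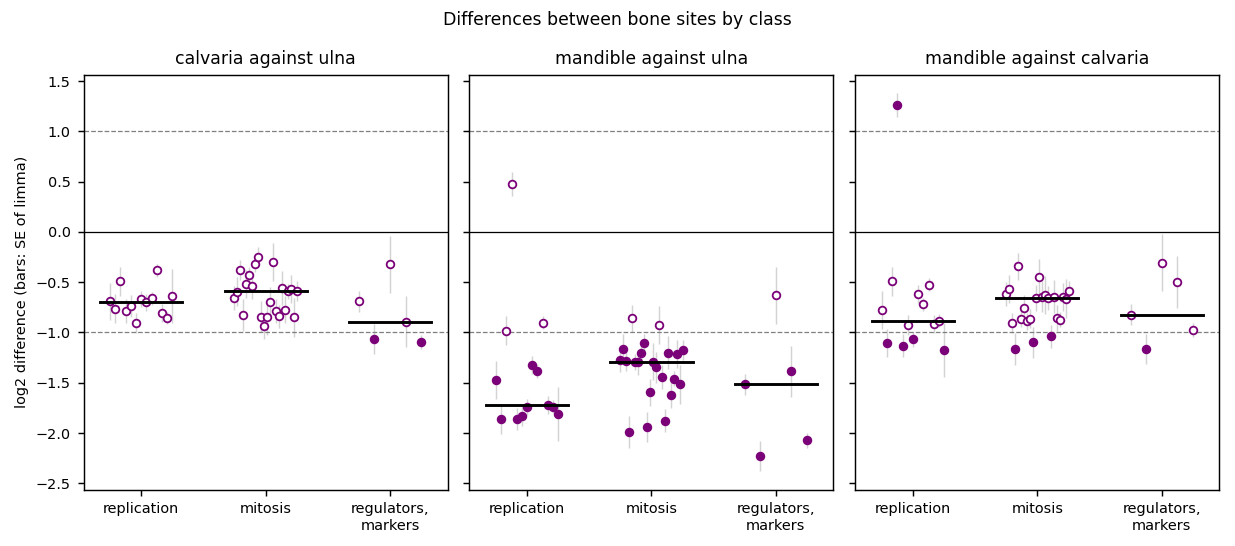
Log2 difference of each of the 40 genes in the 3 comparisons, by class, with the SE of the fit as a bar, the class median as a black line and the 2-fold limits dashed (filled points were called, open points were not). The points of mandible against ulna lie mostly below the lower dashed line in all classes, and the 1 filled point above 0 in mandible against calvaria is Mcm2.

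Replication and mitosis genes were then set beside each other. The median difference in mandible against ulna was -1.72 for the 13 replication genes and -1.29 for the 22 mitosis genes. In mandible against calvaria the medians were -0.88 and -0.66, and in calvaria against ulna -0.70 and -0.59. On each array the median of a class was taken after each gene was centred on its mean over the 6 arrays, a comparison within an array that its scaling does not touch. The mitosis median lay above the replication median by 0.113 and 0.133 on the mandible arrays and below it by 0.144 and 0.137 on the ulna arrays, with differences of -0.0403 and 0.0452 in calvaria. Because each gene was centred over the 6 arrays, these values restate the difference between the class medians array by array and add no further support to it. With 2 arrays a site this difference of classes was described and not tested. The single genes of both classes spanned ranges that overlap, from -1.86 (Cdc6 and Mcm3) to 0.47 (Mcm2) in replication and from -1.99 (Bub1) to -0.86 (Bub1b) in mitosis. With the probe set of the largest change for each gene, the order of the 2 medians turned in calvaria against ulna, to -0.70 for replication and -0.78 for mitosis. Without the second ulna array both medians were -0.68 there. The longer lists, of 41 further replication genes and 57 further mitosis genes, had the opposite order in all 3 comparisons. Their medians were -0.99 and -1.40 in mandible against ulna, -0.44 and -0.61 in calvaria against ulna and -0.66 and -0.81 in mandible against calvaria. A larger difference of replication genes therefore holds for the 13 genes chosen and not for the longer list.

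Several probe sets of the same gene went the same way in most cases, but often differed in whether they were called. Of the 76 tested probe sets, 71 were negative in calvaria against ulna, 75 in mandible against ulna and 74 in mandible against calvaria. Of the 23 genes with more than 1 tested probe set, 5 held both signs in calvaria against ulna (Cdc20, Cenpf, Tpx2, Ttk and Cdc45), 1 in mandible against ulna (Mcm2) and 2 in mandible against calvaria (Tpx2 and Mcm2). In the genes other than Mcm2 the positive probe set had a low signal and did not pass the adjusted p. For Cdc20 it gave 47.7 and 38.7 in calvaria and 41.1 and 17.7 in ulna, not far from the array medians of 32.5, 32.4, 31.0 and 30.6. A further probe set was called lower where the probe set that stands for the gene was not in 5 genes in calvaria against ulna (Cenpa, Cenpe, Cenpf, Kif11 and Mcm3), in 3 genes in mandible against ulna (Bub1b, Foxm1 and Mcm2) and in 4 genes in mandible against calvaria (Bub1b, Mcm4, Mcm6 and Top2a). In the other sense, a further probe set was not called lower in 5 genes called in mandible against ulna (Cdc20, Cdc45, Rrm2, Tpx2 and Ttk) and in 2 genes called in mandible against calvaria (Cenpe and Mcm3). In mandible against ulna a further probe set of Rrm2 differed by -0.94 and one of Cdc20 by -0.67. The probe sets that stand for these genes differed by -1.74 and -1.29, so the size of the change depends on the probe set.

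Genes of the same pathways outside the 41 were counted from lists. Of 41 further replication genes tested, 20 were called lower in mandible than in ulna and 0 higher (median -0.99), where 10.9% of all genes were called lower. They included Fen1, the flap endonuclease of the lagging strand, with a signal of 1046 ± 20.4 (SD, n = 2) in ulna, 484 ± 38.4 in calvaria and 314 ± 6.62 in mandible. Fen1 was the only further replication gene called lower in calvaria than in ulna (log2 -1.19, SE 0.09), where 4.54% of all genes were. Rfc5, a subunit of the clamp loader, was the only gene of the list called in mandible against calvaria, where 4.01% of all genes were called lower. It gave 109 ± 8.23 in mandible against 212 ± 16.7 in calvaria (adjusted p = 0.000455). With the 2-fold limit, the calls in these 2 comparisons do not set the list apart from other genes. At an adjusted p under 0.05 alone, 19 of the 41 were lower in calvaria than in ulna, beside 18.4% of all genes. In mandible against calvaria 27 of the 41 were lower, beside 16.2%. The medians were -0.44 and -0.66, beside -0.05 and -0.09 for all genes tested. Next to Fen1, Mcm10, Pola2 and Cdc7 had the largest changes in mandible against ulna (log2 -1.72, -1.71 and -1.68). Of 57 further mitosis genes tested, 47 were called lower in mandible than in ulna and 0 higher (median -1.40). The largest changes were those of the kinetochore scaffold Knl1 (log2 -2.16, SE 0.24), of Arhgap11a (-2.08, SE 0.12), of the cohesion factor Cdca5 (-2.04, SE 0.14) and of Fbxo5, the early mitotic inhibitor of the anaphase-promoting complex (-1.94, SE 0.09). In calvaria against ulna 5 of the 57 were called lower (Ckap2l, Zwilch, Fbxo5, Cdc25c and Dlgap5), beside 4.54% of all genes. In mandible against calvaria 11 were called lower, beside 4.01% of all genes.

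The genes that decide on entry into the cycle were divided. Of 21 G1 cyclins, kinases and E2F factors, 11 were called lower in mandible than in ulna (median -1.33), beside 10.9% of all genes. At their head were the cyclins Ccne2 (log2 -2.04, SE 0.15) and Ccne1 (-1.91, SE 0.17), the factor E2f2 (-2.03, SE 0.17) and the kinase Cdk2 (-1.68, SE 0.14). Of the D cyclins, which carry growth signals to the cell cycle, Ccnd1 and Ccnd2 were higher than in ulna in both skull sites, and Ccnd3 was lower. Ccnd1 was called higher in calvaria (log2 1.09, SE 0.11, 428 ± 27.0 against 191 ± 19.2, SD, n = 2). In mandible it differed by 0.97 (adjusted p = 4.39e-05), short of the 2-fold limit. Ccnd2 was called higher in mandible (log2 1.24) and differed by 0.81 in calvaria (adjusted p = 0.000145), again short of that limit. Ccnd3 was called lower in mandible (log2 -1.33) and differed by -0.71 in calvaria (adjusted p = 0.000163). In calvaria against ulna the 3 genes of the list called lower were E2f2, E2f6 and Ccne2, where 4.54% of all genes were called lower.

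Inhibitors and genes of quiescence moved both ways, with 4 of 19 called higher and 4 called lower in mandible against ulna (median -0.25). Of all genes, 11% were called higher there and 10.9% lower. Cdkn1a, the p21 inhibitor of cyclin-dependent kinases, was called higher in mandible than in ulna (log2 2.61, SE 0.22) and than in calvaria (log2 1.82, SE 0.22), with 685 ± 6.1 in mandible, 190.0 ± 35.2 in calvaria and 107 ± 40.7 in ulna (SD, n = 2). Gas1, a membrane protein first found in growth-arrested fibroblasts, was called higher in both skull sites than in ulna (log2 1.86 in calvaria and 1.88 in mandible, SE 0.12 for both). Cdkn1c, the p57 inhibitor, was likewise called higher in both (log2 1.52 and 1.54, SE 0.17 for both). Cdkn2b, the p15 inhibitor, had 161 ± 18.2 in mandible, but 11.9 ± 2.24 in ulna and 4.71 ± 0.771 in calvaria, below the array medians of those sites, so that its difference of 3.65 from ulna (SE 0.56) is not exact. The genes called lower were Rbl1, the p107 pocket protein, and Lin9, Lin52 and Lin54 of the MuvB core, which binds promoters of cell cycle genes in both its repressing and its activating form. In mandible Lin9 (32.9 ± 6.39) and Lin52 (36.9 ± 8.96) lay near the array medians of 33.6 and 33.2, so their differences are not exact.

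**Figure D4:**
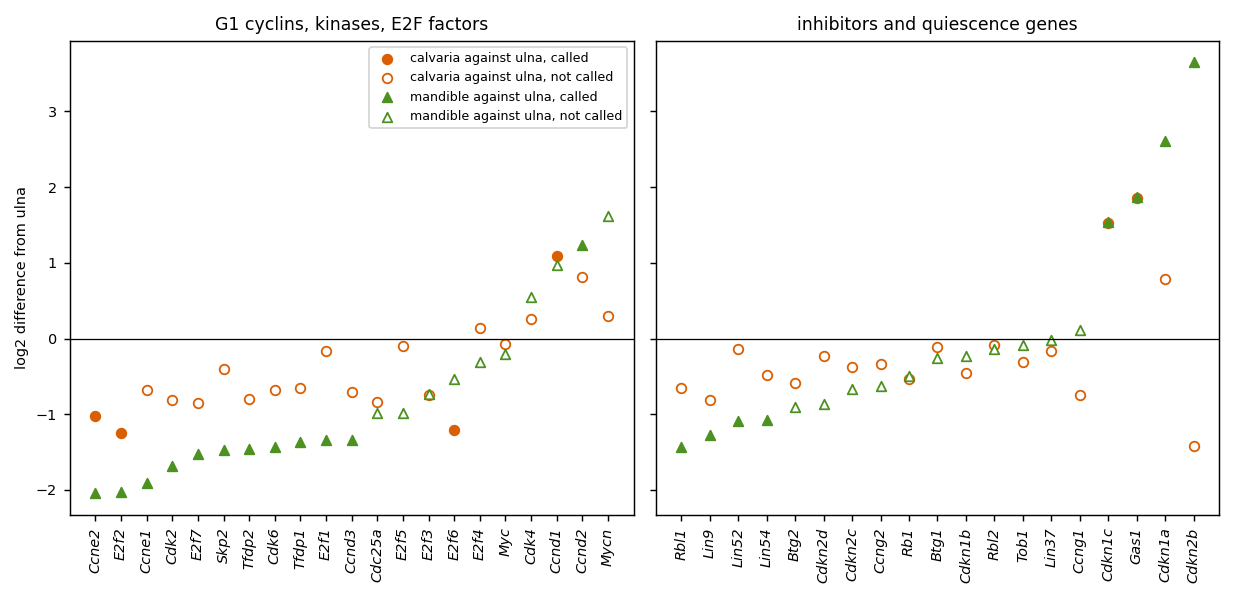
Log2 difference from ulna of the G1 cyclins, kinases and E2F factors (left) and of the inhibitors and quiescence genes (right), in calvaria (circles) and mandible (triangles), ordered by the mandible value. Filled points were called, and the called inhibitors at the right end, Cdkn1c, Gas1, Cdkn1a and Cdkn2b, lie above 0.

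Many markers of blood precursors moved with the cell cycle genes, and their part in the result was not tested. Of all genes tested, 10.9% were called lower in mandible against ulna, 4.54% in calvaria against ulna and 4.01% in mandible against calvaria. All 15 erythroid markers tested, such as the membrane protein Ermap and the blood group protein Kel, were called lower in mandible than in ulna (median -1.67), 4 of 15 were called lower in calvaria than in ulna (median -0.87) and 3 of 15 in mandible than in calvaria (median -0.84). Their summed signal was 16900 to 17590 in ulna, 10420 to 10780 in calvaria and 5899 to 6380 in mandible. Of 9 progenitor and megakaryocyte markers, 6 were called lower in mandible than in ulna. In calvaria against ulna 3 were called lower, and in mandible against calvaria 2. Their sums were 8876 to 9053 in ulna, 5191 to 5366 in calvaria and 3542 to 3551 in mandible. The megakaryocyte gene Pf4, with 5262 ± 16 in ulna (SD, n = 2), made up the larger part. The progenitor marker Cd34 went the other way against ulna, by 0.64 in calvaria (adjusted p = 0.0338) and 0.59 in mandible (adjusted p = 0.0332). Kit did not differ between mandible and ulna (log2 -0.06, adjusted p = 0.852). Of 14 markers of neutrophils and their precursors, 8 were called lower in mandible than in ulna, 1 in calvaria than in ulna and 3 in mandible than in calvaria, with sums of 88120 to 89730, 74500 to 79340 and 59570 to 60000 in the same order of sites. Among these, Mpo had the largest difference in mandible against ulna (log2 -1.81, SE 0.07) and S100a9 the smallest (log2 -0.23, SE 0.05). Ltf and Elane lay between them (log2 -1.39 and -1.19). The marker called lower in calvaria than in ulna was Cxcr2 (log2 -1.01, SE 0.23). B cell markers did not follow the order of sites, since 0 of 12 were called in calvaria against ulna (median 0.00), while 5 were called lower in mandible than in ulna and 6 in mandible than in calvaria. Their sums were 3467 to 3742 in ulna, 3766 to 4125 in calvaria and 2204 to 2218 in mandible.

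Markers of other tissues of the samples stood in other orders. All 7 osteoblast markers tested were called higher in calvaria and in mandible than in ulna, with sums of 6051 to 6285 in ulna, 28850 to 32660 in calvaria and 28160 to 29190 in mandible. Of 8 osteoclast markers, 5 were called higher in calvaria than in ulna and 5 lower in mandible than in calvaria, and 1 of them, Mmp9, is in the neutrophil list too. The 14 skeletal muscle markers were all called lower in calvaria than in ulna, with sums of 8130 to 8266 in calvaria, 61220 to 62630 in mandible and 70040 to 71260 in ulna. Of 9 tooth markers, 8 were called higher in mandible than in ulna, with sums of 68690 to 69160 in mandible, 3217 to 3813 in calvaria and 2070 to 2146 in ulna. The sums of calvaria and ulna were almost wholly Dmp1, the marker not called, with 3441 ± 395 and 2011 ± 64.9 (SD, n = 2). Of 10 epithelium markers, 9 were called higher in mandible than in ulna, with sums of 5666 to 5825, 202.9 to 216.3 and 242.2 to 290.0 in the same sequence of mandible, calvaria and ulna. All sums here and above are of deposited signal, and how much each of these tissues changes the share of dividing cells in an array was not tested. The T cell list kept only 3 tested markers, with 1 called higher and 1 lower in calvaria against ulna.

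**Figure D5:**
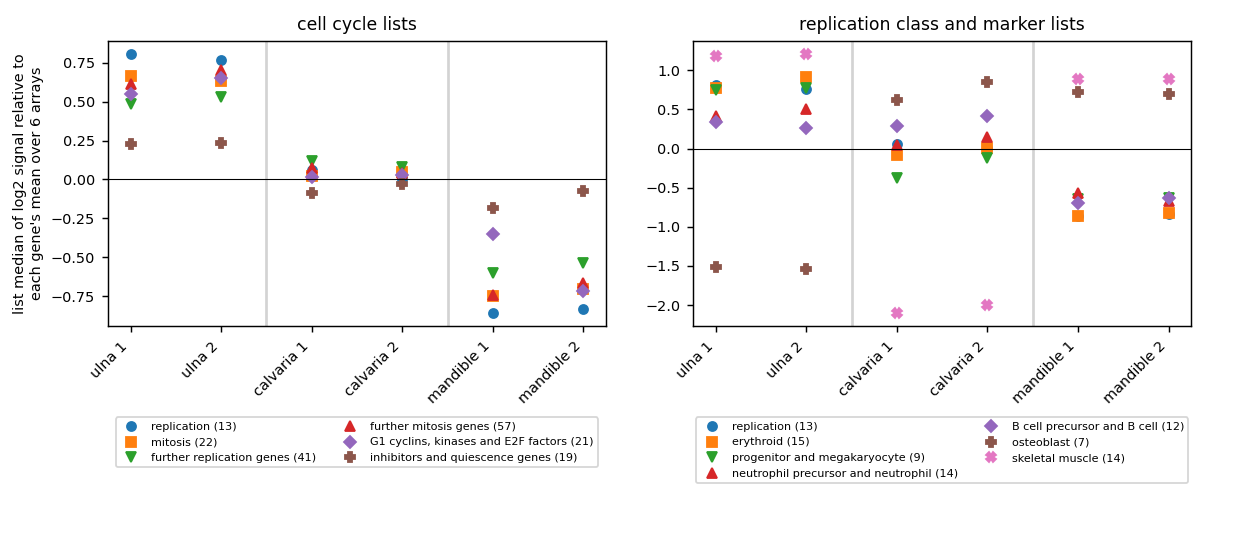
Median of each list on the 6 arrays, as log2 signal relative to each gene's mean over the arrays, with the number of genes of a list in brackets. On the left the lists other than the inhibitors fall from ulna over calvaria to mandible on all arrays, and in the inhibitors 1 mandible array lies above 1 calvaria array. On the right the erythroid, the progenitor and megakaryocyte and the neutrophil lists keep that order, while the B cell, osteoblast and muscle lists do not.

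Promoters were looked at for what the classes share besides their role. The sequences are those of RefSeq on the assembly GRCm38.p6, 250 bases before to 50 after the start listed there, and 34 of the 41 genes had one, Ccnb1 among them. Motifs were searched on both strands. The cell cycle genes homology region (CHR), TTTGAA or TTCGAA, is bound by the MuvB core and found in promoters active in mitosis. The CCAAT box, CCAAT, is bound by NF-Y. The E2F words TTTCGCGC, TTTGGCGC, TTTCCCGC and TTTGCCGC stand for the sites of E2F factors in promoters of S phase genes. A CHR was found in 16 of 20 promoters of mitosis genes (80%), in 3 of 11 of replication genes (27.3%) and in 19.4% of all 27025 promoters of the table. An E2F word was found in 5 of 11 replication promoters (45.5%), in 1 of 20 mitosis promoters (5%) and in 2.32% of all. A CCAAT box was found in 18 of 20 mitosis promoters (90%), 9 of 11 replication promoters (81.8%) and 37.9% of all. CHR and CCAAT box stood together in 16 of 20, in 3 of 11 and in 7.7% of all. In 1 promoter words of different motifs overlapped, and in 3 words of the same motif did. A match describes the letters of the window and is no measured site.

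The 160 bases before the start are shown for 6 genes, so that the words can be seen in genes that fell in mandible against ulna, 3 of mitosis, Mki67 and 2 of the MCM ring. Capitals mark the motif words on either strand (TTCAAA is TTTGAA, and ATTGG is CCAAT, read on the other strand).
Cdk1 (chr10:69352913-69353072, minus strand): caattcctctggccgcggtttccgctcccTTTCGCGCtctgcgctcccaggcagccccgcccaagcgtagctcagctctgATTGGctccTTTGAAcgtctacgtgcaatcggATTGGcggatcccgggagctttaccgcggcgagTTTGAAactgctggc
Ube2c (chr2:164769769-164769928, plus strand): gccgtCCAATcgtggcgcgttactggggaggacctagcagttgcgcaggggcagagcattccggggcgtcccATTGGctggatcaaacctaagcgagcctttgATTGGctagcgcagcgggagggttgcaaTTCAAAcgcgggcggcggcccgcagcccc
Top2a (chr11:99024190-99024349, minus strand): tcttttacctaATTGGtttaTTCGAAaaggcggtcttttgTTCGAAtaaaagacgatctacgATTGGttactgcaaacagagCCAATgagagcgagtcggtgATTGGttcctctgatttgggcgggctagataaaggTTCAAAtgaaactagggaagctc
Mki67 (chr7:135716380-135716539, minus strand): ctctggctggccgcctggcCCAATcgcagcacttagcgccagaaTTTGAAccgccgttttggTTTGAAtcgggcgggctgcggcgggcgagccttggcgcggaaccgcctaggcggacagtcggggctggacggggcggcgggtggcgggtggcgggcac
Mcm6 (chr1:128359706-128359865, minus strand): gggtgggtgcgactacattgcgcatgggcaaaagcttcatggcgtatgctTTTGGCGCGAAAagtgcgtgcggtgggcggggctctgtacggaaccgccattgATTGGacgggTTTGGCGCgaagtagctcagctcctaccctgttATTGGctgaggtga
Mcm5 (chr8:75109349-75109508, plus strand): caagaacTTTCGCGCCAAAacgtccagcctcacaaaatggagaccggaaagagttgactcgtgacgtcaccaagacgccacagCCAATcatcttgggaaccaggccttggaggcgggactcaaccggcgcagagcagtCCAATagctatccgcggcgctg
The 3 mitosis promoters hold CHR words close to the start beside CCAAT boxes, and Cdk1 is the 1 mitosis gene with an E2F word. Neither of the 2 MCM promoters shown holds a CHR, but among those not shown Mcm2 (at -70) and Mcm7 (at -173) do. Both of those shown hold 2 overlapping E2F words in a run, with CCAAT boxes nearer to the start. Mcm6 has a further E2F word between its 2 CCAAT boxes. Birc5 and Nusap1 in mitosis, Melk among the markers and Tyms in replication held none of the 3 motifs in this window, and these 4 genes were called lower in mandible than in ulna too.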

How the data were processed

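RNA of calvaria, mandible and ulna was hybridised to Affymetrix mouse arrays after 1 cycle of labelling. The deposited values are MAS5 signal intensities on a linear scale, 1 for each of 45101 probe sets and array. The authors had scaled every array so that its mean, trimmed by 2%, was 100. The array annotation gave 1 symbol to 34958 probe sets, several to 932 and none to 9211. The 64 probe sets that are controls were not analysed.

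The signals of an array were divided by their median (30.6 to 33.6) and turned to log2 without an offset. A probe set was tested if 2 or more of the 6 arrays had it above the median, which left 25233 (55.9%). A mean for each site was fitted to all 6 arrays in R 4.3.3 (limma 3.58.1) with moderated variances that follow a trend in signal (residual degrees of freedom 3, prior 7.67) and Benjamini-Hochberg adjustment over all tested probe sets. The limits of 0.05 and 2-fold follow the methods of the study. Where a gene had several tested probe sets, the brightest on average was used. Arrays of a site correlated at 0.952 to 0.956 over the tested probe sets, and the median SD between them was 0.194 on the log2 scale. The genes, the lists of further genes and markers and the tests were chosen with earlier results of these data known. Signal on every array is given, in each class, for the 3 genes with the highest mean and the 3 with the largest difference, and for genes that differ in direction. Of other lists, up to 4 called genes with the largest change are named, and a few more were added after their values were seen. The fit was tested on simulated data. Alternatives covered scaling, filters, an offset of 16 signal units, the variance model, the arrays used, a replicate block, the probe set and the threshold. Same-numbered arrays of different sites did not deviate together (r from -0.012 to 0.006). Python 3.11.15 with matplotlib 3.10.9 was used for plots.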

Additional observations from a re-analysis of the deposited data

How the results depend on the processing

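The medians of the replication and mitosis classes stayed negative under the alternatives tried, while several counts moved. The count of cell cycle genes called lower in calvaria than in ulna, 2, was 1 with the values as deposited, 0 with quantile normalization, 7 with the probe set of the largest change and 36 with the adjusted p alone, and ranged from 2 to 3 when 1 array was left out. Between mandible and ulna the count called lower stayed between 33 and 38, and 1 gene, Mcm2, was higher with the adjusted p alone. Between mandible and calvaria the count called lower, 8, was 3 with an offset of 16 signal units and 35 with the adjusted p alone, and ranged from 5 (without the first calvaria array) to 10 when 1 array was left out, while the count called higher, 1, ranged from 0 to 1. It was 0 without either mandible array, because the other probe set of Mcm2 then had the higher mean. Mcm2 then turned to -1.72 (without mandible replicate 1) and -1.52 (without mandible replicate 2) in mandible against ulna and to -0.99 and -0.79 in mandible against calvaria, where leaving out single arrays gave values from -0.99 to 1.31, and it was -1.62 in mandible against ulna with the probe set of the largest change. With that rule Cdc20 turned to 0.59 in calvaria against ulna (adjusted p = 0.572).

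The class medians moved by more than the spread between arrays under several settings. With the values as deposited the replication medians were -0.63 (calvaria against ulna), -1.60 (mandible against ulna) and -0.84 (mandible against calvaria), and the mitosis medians -0.51, -1.18 and -0.62. With quantile normalization replication was -0.63 and -1.57 in the first 2 comparisons and mitosis -0.50, -1.15 and -0.62 in all 3. With an offset of 16, replication was -0.66, -1.34 and -0.83 and mitosis -0.55, -1.20 and -0.59. With the filter at the 75th percentile, replication was -1.59 in mandible against ulna and -0.83 in mandible against calvaria. With the probe set of the largest change, mitosis was -0.78, -1.57 and -0.89. Leaving out 1 array at a time, replication ranged from -0.74 to -0.67, from -1.72 to -1.67 and from -0.92 to -0.86, and mitosis from -0.68 to -0.59, from -1.35 to -1.29 and from -0.74 to -0.66. The median of all genes in mandible against ulna moved from -0.085 to 0.033 with the values as deposited, and the median of the cell cycle genes less that of all genes was -1.299 under both. The replicate block, fitted although the numbers do not pair the arrays, changed no call of a cell cycle gene, with 2, 34 and 8 called lower.

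These are 2 arrays a site of whole bone, with detection calls not used here, so that genes near the array median, such as Tyms, Foxm1 and Melk, have imprecise differences. The smallest differences that these arrays show are limited by the spread between arrays of a site. No array was far from its pair.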
